A study of Mus musculus with 18 samples.

Results

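Chemokine ligand genes encode small secreted proteins that steer the movement of white blood cells. The genes described here are all those on the array whose symbol has the form Ccl, Cxcl, Cx3cl or Xcl followed by a number and, in some cases, a letter. There were 33 of them among the 18193 genes tested, and each was read from its probe set with the highest mean, out of 51 probe sets with 1 gene symbol. They lay on 8 mouse chromosomes in the annotation used, with 12 on chromosome 11 and 10 on chromosome 5. The choice rested on gene symbols and not on measured values, so every gene could be tested. Ccl19, the Ccl21 genes and Ccl27b share probe sets with other symbols and were not read.

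Chemokines are named for the spacing of cysteines near the start of the protein, which gives the CC (Ccl), CXC (Cxcl), CX3C (Cx3cl) and C (Xcl) classes. They bind receptors of the G protein-coupled family on the surface of leukocytes, which then move up the gradient of the ligand. Atypical receptors bind ligands without calling cells in, and some of them take ligands up and degrade them. In the lung, homeostatic chemokines made by stroma and endothelium place lymphocytes and progenitors, and inflammatory chemokines made by epithelium and macrophages bring neutrophils, monocytes, eosinophils and T cells to sites of injury or tumor growth.

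The study measured RNA in lung tissue of B6C3F1/N mice, a cross of inbred strains, on Affymetrix arrays that probe the 3-prime ends of transcripts. Exposure began at 5 to 6 weeks of age. Mice breathed antimony trioxide aerosol at 0, 3, 10 or 30 mg per cubic metre on 5 days of each week, each time for 6 hours plus 12 minutes, and the longest exposure was 105 weeks. The CONTROL arrays hold lung of vehicle controls, the SPONT arrays hold spontaneous lung tumors, and the TREATED arrays hold lung tumors of mice given antimony trioxide; the series title calls the tumors alveolar bronchiolar carcinomas. Tumors were dissected from the lung around them, so a tumor array is set against normal lung with its airways, vessels and stroma. The labels do not give the animal, the sex, the age at sampling or the exposure level behind an array, and the p-values therefore reflect only how far these samples vary, which may be technical in part. In bulk tissue, fewer cells of a type and less RNA per cell cannot be told apart.

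Values are log2 signals on an array-wide scale, and a difference of 1 is a change of 2-fold. The arrays CONTROL 5, SPONT 5 and SPONT 6 stood apart, with median correlations of 0.30 to 0.48 with the other arrays against 0.92 to 0.97 for the remaining 15, and they were left out. This left 5 control, 4 spontaneous and 6 treated tumor arrays, called control, spontaneous tumor and treated tumor with their number in what follows. The mean log2 signal of 7 alveolar type 2 cell markers lay between 12.07 and 12.84 in controls, 13.43 and 13.59 in spontaneous tumors and 13.27 and 13.43 in treated tumors, and 6 of the 7 were higher in each tumor group. Markers of fibroblasts, smooth muscle, blood and lymphatic vessels and B cells were mostly lower in both tumor groups.

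Against control lung, 7 of the 33 chemokine ligands passed the test in spontaneous tumors, 3 higher and 4 lower, at an adjusted p under 0.05 from limma over all genes. The same test called 33% of all genes in that comparison, 20.1% higher and 12.9% lower. In treated tumors 10 of 33 passed, 5 higher and 5 lower, against 38.7% of all genes, 23.7% higher and 15% lower. Whether these shares differ from those of all genes was not tested. Between the tumor groups 0 of 33 passed in limma, against 0.055% of all genes (0.033% higher and 0.022% lower), and 0 had an unadjusted p under 0.05. With all 18 arrays the counts of ligands against control fell to 2 and 4, beside 746 and 1353 of all 18193 genes. In an exact permutation test the ligand counts were 1 and 11, beside 4038 and 6458 of all genes.

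In both tumor groups 6 genes changed in the same direction: Cxcl1, Cxcl3 and Ccl17 rose, and Cxcl12, Cxcl13 and Ccl11 fell. Cxcl14 passed as lower in spontaneous tumors, while Cxcl2 and Ccl6 passed as higher and Ccl5 and Ccl27a as lower in treated tumors. The other 22 genes passed in neither. Both comparisons use the same 5 control arrays, so the shared genes are not independent findings. How many of all genes passed in both was not counted. The 6 of 33 therefore cannot be read as particular to the ligands. The median log2 fold change of the 33 genes was 0.13 in spontaneous and 0.08 in treated tumors, next to 0.12 and 0.09 for all genes. Their median absolute change was larger than that of all genes, at 0.51 against 0.31 and 0.57 against 0.31. Their median standard error was larger too, at 0.46 against 0.17 and 0.41 against 0.15. Less precise values give larger absolute changes even without a true change, so this does not show that the ligands changed more.

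**Figure D1:**
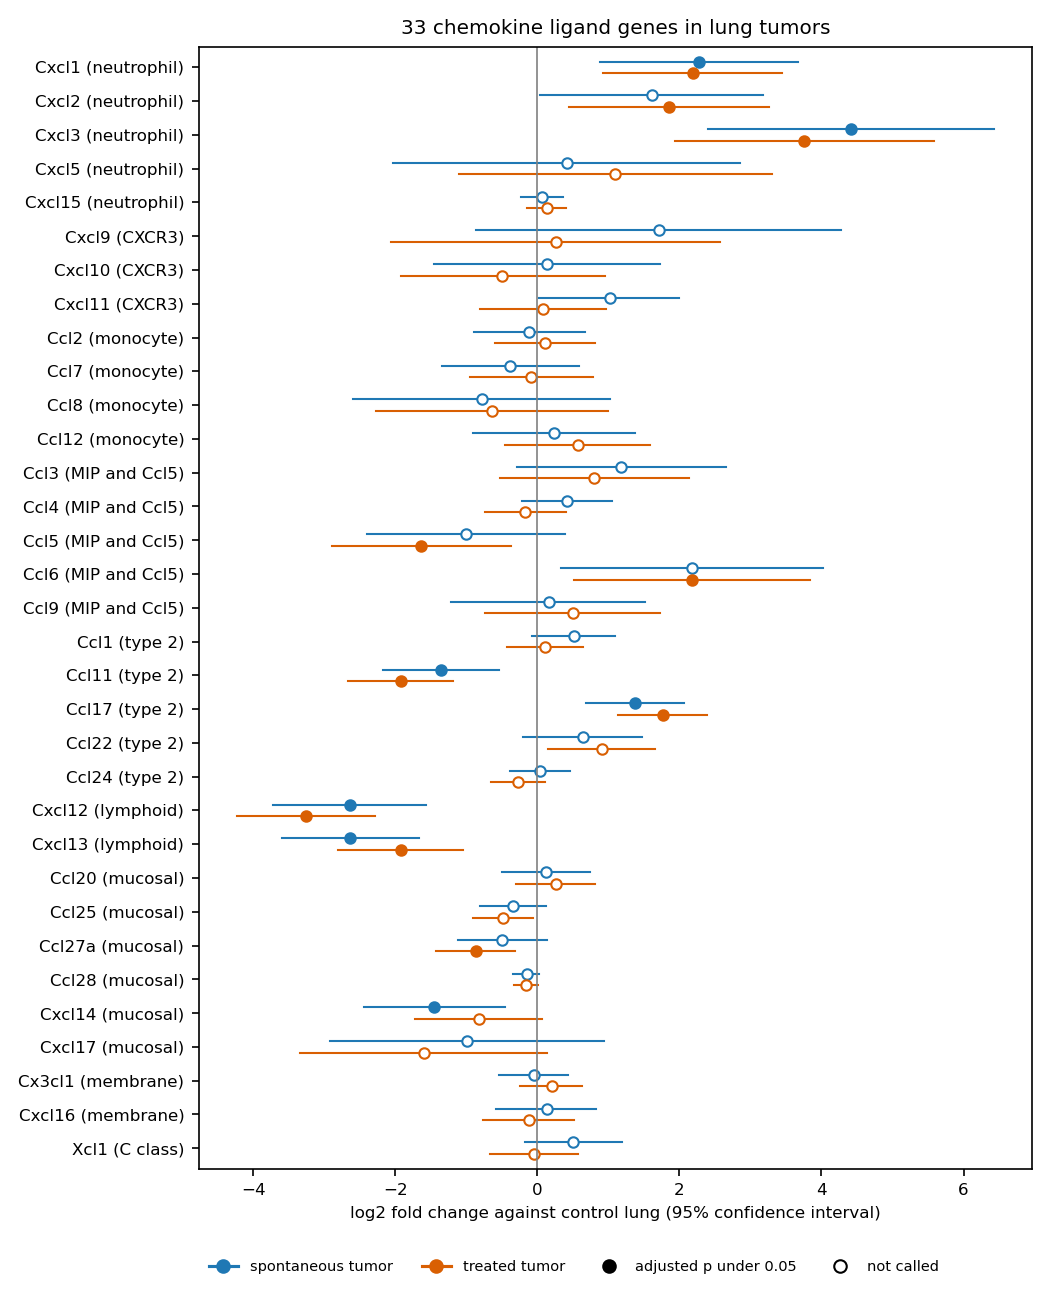
Log2 fold change against control lung (x axis) with 95% confidence intervals for each of the 33 chemokine ligand genes (y axis, ordered by role), in spontaneous (blue) and treated (orange) tumors. Filled points passed an adjusted p under 0.05: 7 in spontaneous and 10 in treated tumors, with Cxcl3 farthest to the right and Cxcl12 farthest to the left.

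Promoter sequences are shown for Cxcl3, Cxcl1 and Cxcl2, neighbours on chromosome 5 that all passed as higher in treated tumors and carry the same 11 letters shortly before their start, and for Cxcl12 and Cxcl13, which fell in both tumor groups. Each line gives the 150 bases that end just before the annotated start, 5′ to 3′ on the plus strand of GRCm38.p6 from RefSeq: chr5:90785951-90786100 for Cxcl3, chr5:90891095-90891244 for Cxcl1, chr5:90903749-90903898 for Cxcl2, chr6:117168385-117168534 for Cxcl12 and chr5:95956789-95956938 for Cxcl13. Capitals mark matches, merged where they overlap, to a kappaB pattern on either strand (GGG, any 3 bases, then TTCC), the kind of site that NF-kappaB binds, and to the TATA box TATAAA on the plus strand.
Cxcl3: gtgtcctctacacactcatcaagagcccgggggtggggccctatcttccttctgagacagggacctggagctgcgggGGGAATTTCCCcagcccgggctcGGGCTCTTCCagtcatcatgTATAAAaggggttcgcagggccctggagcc
Cxcl1: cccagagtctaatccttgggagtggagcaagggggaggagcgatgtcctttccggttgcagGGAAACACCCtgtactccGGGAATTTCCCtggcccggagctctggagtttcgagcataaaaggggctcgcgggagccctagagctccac
Cxcl2: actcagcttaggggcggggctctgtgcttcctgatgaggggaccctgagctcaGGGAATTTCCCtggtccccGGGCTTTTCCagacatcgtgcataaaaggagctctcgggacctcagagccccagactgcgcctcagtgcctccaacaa
Cxcl12: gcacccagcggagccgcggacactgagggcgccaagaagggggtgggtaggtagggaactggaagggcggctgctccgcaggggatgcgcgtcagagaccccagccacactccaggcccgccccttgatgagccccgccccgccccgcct
Cxcl13: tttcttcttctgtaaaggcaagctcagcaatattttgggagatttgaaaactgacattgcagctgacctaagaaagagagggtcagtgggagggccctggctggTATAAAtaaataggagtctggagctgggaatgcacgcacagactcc
The longest run that the Cxcl3, Cxcl1 and Cxcl2 stretches share is GGGAATTTCCC, which matches the kappaB pattern on both strands. It was singled out after these sequences were seen, as a run that all 3 share, so its presence in these 3 was fixed by the choice. Among the 23 chemokine promoters that RefSeq's table holds, no other has it. It occurs in 0.0407% (11) of 27025 promoters of the same length of 300 bases, 1 per gene. Those 11 include the promoters of Cxcl1, Cxcl2 and Cxcl3, and the count is no test of these genes. Cxcl15, which lies between Cxcl3 and Cxcl1 on chromosome 5, has no match to the kappaB pattern in its window.

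The looser kappaB pattern was found in the windows of 7 chemokine genes, Cxcl1, Cxcl2, Cxcl3, Cxcl10, Ccl1, Ccl9 and Ccl20, and in 5.52% of all promoters. Of these 7 genes, 3 were called higher in a tumor group and 4 in none. The windows of Cxcl12 and Cxcl13, both lower in tumors, hold no match, which says only that these letters are not in the window. The Cxcl12 window of 300 bases was 64.7% G or C with 20 CpG sites, against medians of 50.3% and 4 over the 23 chemokine windows and 52.7% and 7 over all promoters. The Ccl17 window holds the STAT6 pattern (TTC, any 4 bases, then GAA, on either strand), present in 6.99% of all promoters, and is the single chemokine window with it. The interferon-response pattern (GAAA, any 2 bases, then GAAA, on either strand) was in the windows of Cxcl10 and Cxcl14 and in 3.49% of all promoters.

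Of the 5 neutrophil chemokines measured, 2 passed as higher in spontaneous and 3 in treated tumors, and 0 passed as lower. Over all genes, 20.1% and 23.7% passed as higher, and 12.9% and 15% as lower. These shares also apply to the role groups and gene lists counted below. Cxcl1, Cxcl2 and Cxcl3 bind the receptor CXCR2 on neutrophils. Cxcl3 had log2 signals of 2.53, 5.13, 2.65, 2.27 and 2.82 in controls 1, 2, 3, 4 and 6 and of 5.08, 8.31, 8.52 and 8.04 in spontaneous tumors 1 to 4. In treated tumors its lowest, median and highest signals were 3.51, 7.40 and 8.34. All 4 spontaneous and all 6 treated tumors lay above every control except control 2, which exceeded spontaneous tumor 1 and treated tumor 4. The log2 fold change was 4.41 ± 0.95 (SE; limma adjusted p = 0.00234) in spontaneous and 3.76 ± 0.85 (adjusted p = 0.00269) in treated tumors. These were the largest changes among the 33 genes in either comparison. The control mean of 3.08 is near the bottom of the scale, with 3.38% of genes lower, and the values used carry no detection call, so the controls may be at background and no fold is given.

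Cxcl1 had signals of 7.86, 8.87, 7.32, 7.66 and 9.86 in controls and of 9.14, 11.09, 11.36 and 10.79 in spontaneous tumors. Treated tumors ranged from 8.82 over a median of 10.65 to 12.19. Control 6 lay above the lowest tumor of both groups and control 2 above the lowest treated tumor, while the other controls lay below all tumors. The fitted log2 change was 2.28 ± 0.65 (limma adjusted p = 0.0147) and 2.19 ± 0.59 (adjusted p = 0.00834). The probe set read for Cxcl1 is of a type whose probes can also pair with other transcripts; its other 2 probe sets gave 2.32 and 2.48 in spontaneous and 2.41 and 2.44 in treated tumors and passed in a test of every probe set singly.

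Cxcl2 split the tumors, and its control mean of 3.39 was also near the bottom of the scale, with 4.69% of genes lower. Controls were at 3.22, 3.81, 3.23, 3.10 and 3.59, while spontaneous tumors were at 3.46, 6.21, 6.57 and 3.75 and treated tumors at 3.76 to 6.60 with a median of 5.27. Spontaneous tumors 1 and 4 were thus at the level of controls, and tumors 2 and 3 well above it. The change passed in treated tumors, at 1.85 ± 0.66 (limma adjusted p = 0.0375), but not in spontaneous tumors, at 1.61 ± 0.73 (adjusted p = 0.106); treated and spontaneous tumors themselves differed by 0.24 (95% interval -1.26 to 1.75, adjusted p = 0.946). The treated call was lost without any 1 of control 1, 3, 4 or 6 or treated tumor 2, 3 or 6, with adjusted p between 0.055 and 0.0806, and the spontaneous change passed without spontaneous tumor 1, at an adjusted p of 0.0483.

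Cxcl5 and Cxcl15 complete this group and did not pass. Cxcl5, made by lung epithelium, ranged from 4.65 to 7.09 in controls, 4.28 to 7.41 in spontaneous and 3.16 to 9.82 in treated tumors. Its changes were 0.42 ± 1.15 and 1.10 ± 1.04, and its SD of 2.61 was the largest of the 33 genes in treated tumors. Cxcl15, or lungkine, a chemokine of lung epithelium, was the opposite case, with 13.94 to 14.08 in controls and 14.01 to 14.18 in treated tumors, an SD of 0.06 in both; spontaneous tumors ranged from 13.49 to 14.33. Its change in treated tumors was 0.13 ± 0.13, an interval of -0.14 to 0.40. The control mean of 13.99 is near the top of the scale, with 99.9% of genes lower. Whether the signal was near a ceiling that narrows differences and SD was not tested. Its second probe set gave 0.34 ± 0.16 in spontaneous and 0.21 ± 0.14 in treated tumors and did not pass when tested singly.

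The receptor of this group did not pass. Cxcr2 had a log2 fold change of -0.53 ± 0.50 (limma adjusted p = 0.441) in spontaneous and -0.11 ± 0.45 (adjusted p = 0.878) in treated tumors. Of 6 neutrophil markers measured, 0 passed as higher and 1, Csf3r, the receptor of granulocyte colony-stimulating factor, passed as lower in each tumor group. The spontaneous call of Csf3r was lost without control 2, spontaneous tumor 1 or spontaneous tumor 4. The mean log2 signal of the 6 markers lay between 6.48 and 7.67 in controls, 5.40 and 7.19 in spontaneous and 6.10 and 7.79 in treated tumors.

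**Figure D2:**
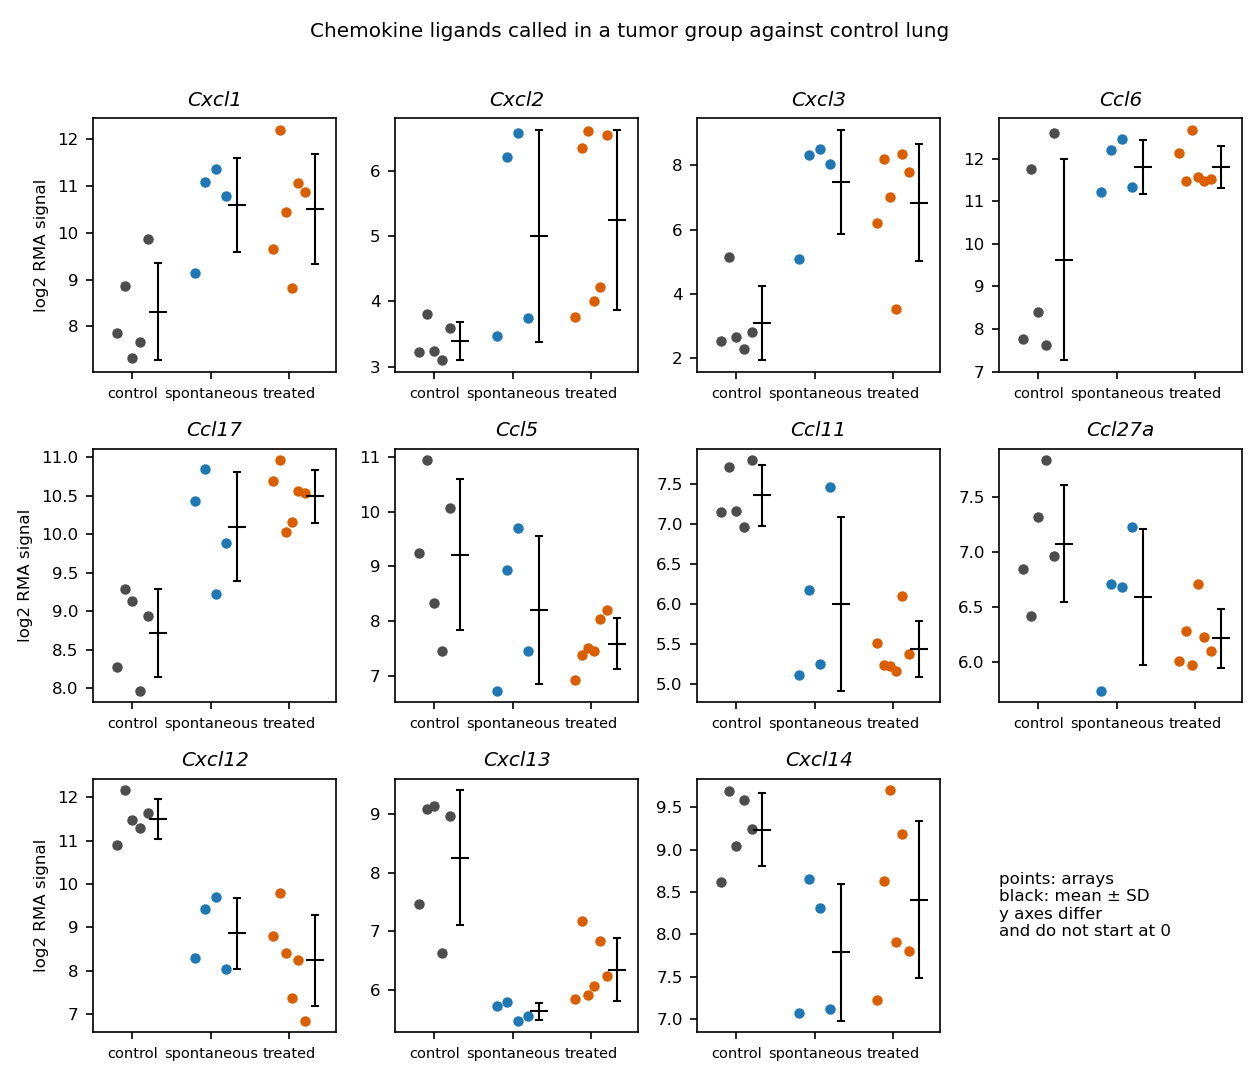
Log2 signal (y axes, which differ between panels and do not start at 0) of the 11 chemokine ligands called in either tumor group, by group (x axes). Points are arrays and black bars are mean ± SD over 5 control, 4 spontaneous and 6 treated arrays; all tumors lie below all controls for Cxcl12, and Cxcl2 is split within both tumor groups.

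The chemokines of type 2 inflammation moved in opposite directions: of 5 measured, Ccl17 rose and Ccl11 fell in both tumor groups, and Ccl1, Ccl22 and Ccl24 did not pass. Over all genes, 33% passed in spontaneous and 38.7% in treated tumors. Ccl17, a ligand of CCR4 on T helper and regulatory T cells, had signals of 8.28, 9.29, 9.13, 7.97 and 8.94 in controls and of 10.43, 10.85, 9.22 and 9.89 in spontaneous tumors. Across treated tumors it ranged from 10.03 over a median of 10.55 to 10.96. All treated tumors exceeded all controls, and among spontaneous tumors number 3 fell below control 2. Against control, the log2 change was 1.37 ± 0.33 (limma adjusted p = 0.00466) and 1.77 ± 0.29 (adjusted p = 0.000239), or 2.59-fold and 3.40-fold.

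Ccl22, the other ligand of CCR4, changed by 0.64 ± 0.39 and 0.91 ± 0.36 and did not pass (limma adjusted p = 0.235 and 0.0551). The treated value passed without control 2, spontaneous tumor 1, spontaneous tumor 2 or treated tumor 1, at adjusted p of 0.0258 to 0.0419. Ccr4 itself did not pass, at -0.05 ± 0.22 and -0.42 ± 0.20. Ccl17 was the single chemokine ligand whose treated tumors all lay above the controls, a separation seen for 14.4% of all genes.

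Ccl11, or eotaxin, which draws eosinophils through CCR3, had signals of 7.15, 7.72, 7.16, 6.96 and 7.80 in controls and of 5.11, 6.18, 5.25 and 7.47 in spontaneous tumors. The treated tumors ran from 5.16 over a median of 5.31 to 6.10. All treated tumors were below all controls, and spontaneous tumor 4 lay within the control range. In log2 units the change was -1.35 ± 0.38 (limma adjusted p = 0.0135) and -1.92 ± 0.35 (adjusted p = 0.000455). The spontaneous call was lost without spontaneous tumor 1 or 3, at adjusted p of 0.0504 to 0.0528. Ccl24, a further ligand of CCR3, changed by 0.04 ± 0.20 and -0.27 ± 0.18, and Ccr3 by -0.03 ± 0.13 and 0.04 ± 0.11, with none of these called.

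Both measured chemokines of lymphoid homing fell in both tumor groups, against 12.9% of all genes in spontaneous and 15% in treated tumors. Cxcl12, the CXCR4 ligand made by stromal and endothelial cells, had signals of 10.91, 12.16, 11.47, 11.29 and 11.64 in controls and of 8.28, 9.42, 9.70 and 8.03 in spontaneous tumors. Treated tumors ranged from 6.84 over a median of 8.32 to 9.79. All 10 tumors were below all 5 controls. Relative to control lung it changed by -2.64 ± 0.51 (limma adjusted p = 0.00104) in spontaneous and -3.25 ± 0.46 (adjusted p = 5.59e-05) in treated tumors, or 6.23-fold and 9.54-fold lower. Its other 2 probe sets gave -1.86 and -1.63 in spontaneous and -2.56 and -1.42 in treated tumors.

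Cxcl13, which draws B cells into follicles through CXCR5, had signals of 7.47, 9.10, 9.15, 6.63 and 8.97 in controls and of 5.72, 5.79, 5.47 and 5.56 in spontaneous tumors. Across treated tumors it ranged from 5.84 over a median of 6.15 to 7.18. All spontaneous tumors were below all controls, while treated tumors 2 and 5 reached above control 4 and stayed below the other controls. The fitted log2 change was -2.63 ± 0.46 (limma adjusted p = 0.000484) and -1.92 ± 0.41 (adjusted p = 0.0018). Cxcl12 and Cxcl13 were the 2 chemokine ligands whose spontaneous tumors all lay below the controls, as 11.4% of all genes did, and none lay wholly above them, against 17.8%, or 29.2% for either direction. In treated tumors Cxcl12 and Ccl11 lay wholly below, against 10% of all genes, and with Ccl17 made 3 against 24.4% for either direction.

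Cxcl13 was also the single chemokine ligand whose tumor groups did not overlap. All 6 treated tumors exceeded all 4 spontaneous tumors, by a mean of 0.71 ± 0.44, which did not pass (limma adjusted p = 0.691). The tumor groups were separate in either direction for 1.63% of all genes, 0.846% with treated tumors higher and 0.781% with them lower. The SD of Cxcl13 was 0.14 in spontaneous tumors, 1.15 in controls and 0.54 in treated tumors.

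Many stromal and B cell markers were lower as well. The mean log2 signal of 8 fibroblast markers was 10.48 to 11.37 in controls, 7.41 to 8.73 in spontaneous and 7.05 to 9.05 in treated tumors, with 5 lower in each tumor group and 1 higher in treated tumors. That of 6 B and plasma cell markers was 6.83 to 8.47 in controls, 5.82 to 6.72 in spontaneous and 5.34 to 6.86 in treated tumors, with 4 and 5 of 6 lower. Cxcr5 fell by 0.77 and 1.07 on the log2 scale (limma adjusted p = 0.00431 and 0.000111). Cxcr4 did not pass, at -0.50 ± 0.22 (adjusted p = 0.0978) and -0.49 ± 0.20 (adjusted p = 0.0662), but passed as lower in treated tumors without control 1 or treated tumor 3. The part of these cells in the change of Cxcl12 and Cxcl13 was not tested.

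Among the macrophage inflammatory proteins and Ccl5, 0 of 5 genes passed in spontaneous tumors and 2 in treated tumors, in opposite directions. Over all genes, 33% passed in spontaneous and 38.7% in treated tumors. Ccl6, made by macrophages, had signals of 7.76, 11.77, 8.39, 7.63 and 12.61 in controls and of 11.21, 12.21, 12.47 and 11.34 in spontaneous tumors. The treated tumors ran from 11.48 over a median of 11.54 to 12.68. Controls fell into a low set of 3 and a high pair, controls 2 and 6, which reached the level of the tumors. Against control, the log2 change was 2.18 ± 0.86 (limma adjusted p = 0.0659) and 2.18 ± 0.78 (adjusted p = 0.0377). The treated call was lost without any 1 of control 1, 3 or 4 or treated tumor 1, 2, 3, 4 or 6, at adjusted p of 0.0506 to 0.11, and the spontaneous change passed without control 2 or control 6, at adjusted p of 0.0226 and 0.00632.

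Controls 2 and 6 were also the controls with the most alveolar macrophage signal. The mean log2 signal of 7 alveolar macrophage markers was 8.79, 10.62, 8.86, 8.58 and 11.47 in controls 1, 2, 3, 4 and 6, and 10.46 to 11.50 in spontaneous and 10.09 to 11.71 in treated tumors. Of these markers 2 passed as higher in spontaneous tumors, and 3 as higher and 1 as lower in treated tumors. The spontaneous count fell to 1 without any 1 of control 1, 3 or 4 or a spontaneous tumor, and the treated count of 4 fell to 1 without control 1 or 3. Siglecf was among those higher in both, by 2.74 ± 0.53 and 2.25 ± 0.48. The part of macrophages in the Ccl6 values was not tested.

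Ccl5, which draws T cells, monocytes and eosinophils, had signals of 9.25, 10.94, 8.34, 7.45 and 10.07 in controls and of 6.73, 8.94, 9.70 and 7.46 in spontaneous tumors. Treated tumors ranged from 6.92 over a median of 7.48 to 8.21. Control 4 lay within the treated range, and the spontaneous tumors spanned most of the control range. In log2 units the change was -1.0 ± 0.65 (limma adjusted p = 0.261) and -1.63 ± 0.59 (adjusted p = 0.0403). The treated call was lost without any 1 of control 1, 2 or 6 or treated tumor 1, 2, 3 or 4, at adjusted p of 0.0606 to 0.113. The mean log2 signal of 7 T cell markers was 7.62 to 8.85 in controls, 6.43 to 7.96 in spontaneous and 5.91 to 7.10 in treated tumors. Of the 7 markers, 4 passed as lower in spontaneous and 6 in treated tumors. The spontaneous count fell to 0 without control 2, spontaneous tumor 1 or spontaneous tumor 4. The treated count stayed between 5 and 7 without any 1 array. The part of T cells in the Ccl5 values was not tested.

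Ccl3, Ccl4 and Ccl9 did not pass. Ccl3 ranged from 4.82 to 8.06 in controls and from 6.60 to 9.16 in spontaneous tumors, with changes of 1.18 ± 0.69 and 0.80 ± 0.62. Ccl4 changed by 0.42 ± 0.30 and -0.17 ± 0.27, and Ccl9 by 0.16 ± 0.64 and 0.50 ± 0.58. Ccr1, the receptor that Ccl3, Ccl5, Ccl6 and Ccl9 share, rose in treated tumors by 1.85 ± 0.48 (limma adjusted p = 0.0064) and was at 1.39 ± 0.53 (adjusted p = 0.0573) in spontaneous tumors, where it passed without control 2, control 6, spontaneous tumor 1 or treated tumor 3. Its signals in controls 1, 2, 3, 4 and 6 were 3.69, 5.96, 4.34, 4.42 and 6.60, again highest in controls 2 and 6.

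The monocyte chemokines Ccl2, Ccl7, Ccl8 and Ccl12, ligands of CCR2 and related receptors, passed in neither tumor group (0 of 4). Their changes were -0.11 ± 0.37, -0.38 ± 0.45, -0.78 ± 0.85 and 0.23 ± 0.53 in spontaneous tumors. In treated tumors they were 0.11 ± 0.33, -0.09 ± 0.41, -0.64 ± 0.77 and 0.57 ± 0.48. The interval for Ccl2 in treated tumors ran from -0.59 to 0.81, so a change of 2-fold lay outside it, while that for Ccl8 ran from -2.27 to 0.99. Ccr2, which marks classical monocytes, fell in both groups, by 1.63 and 1.27 on the log2 scale (limma adjusted p = 0.00558 and 0.0106). The mean log2 signal of 6 monocyte and interstitial macrophage markers had medians of 9 in controls, 10.14 in spontaneous and 10.09 in treated tumors. Its ranges overlapped, at 8.38 to 10.14, 9.34 to 10.55 and 9.29 to 10.66. Among these markers 1 passed as higher in spontaneous tumors, and 1 as higher and 1 as lower in treated tumors.

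The interferon-induced chemokines Cxcl9, Cxcl10 and Cxcl11, ligands of CXCR3 on T and NK cells, also did not pass (0 of 3 in each group). Cxcl9, the most variable ligand in spontaneous tumors, had signals of 3.46, 8.26, 5.94, 3.72 and 5.54 in controls and of 5.76, 9.05, 9.81 and 3.73 in spontaneous tumors. Across treated tumors it ranged from 4.09 to 7.48. Control 2 and spontaneous tumors 2 and 3 were high, and the same arrays were high for Cxcl10, at 9.51, 7.33 and 8.90, and for Cxcl11, at 5.17, 6.13 and 6.41. The change of Cxcl9 was 1.71 ± 1.21 and 0.26 ± 1.09, although its second probe set passed in spontaneous tumors when every probe set was tested singly (0.93 ± 0.31, limma adjusted p = 0.0308).

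Cxcl11 changed by 1.02 ± 0.46 (limma adjusted p = 0.106) in spontaneous tumors and passed there without control 2, spontaneous tumor 1 or spontaneous tumor 4, at adjusted p of 0.029 to 0.0475. Cxcl10 changed by 0.14 ± 0.75 and -0.49 ± 0.67. Their receptor Cxcr3 fell in both groups, by 1.12 and 1.61 on the log2 scale (adjusted p = 0.0106 and 0.000302), with signals of 6.54 to 7.88 in controls and 5.33 to 5.73 in treated tumors. Ifng, the main inducer of this group, did not pass, at 0.13 ± 0.38 and -0.27 ± 0.34. Its highest control signal was 4.85, in control 2, against a control median of 3.91. The highest spontaneous signal was 5.74, in tumor 3, against a median of 3.78, and tumor 2 was at 4. The part of Ifng in the values of these chemokines was not tested.

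Of the 6 chemokines of mucosa and skin, 1 passed in each tumor group, both lower. Over all genes, 12.9% passed as lower in spontaneous and 15% in treated tumors. Cxcl14, a chemokine of epithelium and fibroblasts, had signals of 8.62, 9.69, 9.04, 9.59 and 9.24 in controls and of 7.08, 8.65, 8.31 and 7.12 in spontaneous tumors. The treated tumors ran from 7.23 over a median of 8.27 to 9.70. Spontaneous tumors 1 and 4 were the lowest, tumor 2 reached control 1, and the treated tumors spanned the whole range. The log2 fold change was -1.45 ± 0.46 (limma adjusted p = 0.0256) and -0.82 ± 0.42 (adjusted p = 0.135). The spontaneous call was lost without control 2, control 4, spontaneous tumor 1 or spontaneous tumor 4, at adjusted p of 0.0543 to 0.0843, and the treated change passed without treated tumor 3, at 0.0382. Its second probe set passed in both groups when tested singly, at -1.99 and -1.11.

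Ccl27a, a ligand of CCR10, had signals of 6.85, 6.42, 7.32, 7.84 and 6.97 in controls and of 5.97 to 6.71 in treated tumors, with a median of 6.17. Control 2 lay within the treated range. The change was -0.86 ± 0.26 (limma adjusted p = 0.0165) in treated and -0.49 ± 0.29 (adjusted p = 0.213) in spontaneous tumors. Its probe set can also pair with other transcripts, and Ccl27b is a near-identical copy, so these values may hold both genes.

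Cxcl17, a chemokine of mucosal epithelium, ranged from 9.50 to 11.61 in controls and from 7.53 to 11.89 in treated tumors, in which tumors 2, 4 and 6 were at 7.94, 7.69 and 7.53. Its changes of -0.99 ± 0.91 and -1.60 ± 0.82 did not pass (limma adjusted p = 0.432 and 0.138), and the treated one passed without treated tumor 5, at 0.0347. Ccl25, which guides cells to gut through CCR9, changed by -0.34 ± 0.22 and -0.48 ± 0.20 (adjusted p = 0.0648 in treated tumors) and passed there without spontaneous tumor 1, spontaneous tumor 2 or treated tumor 5. Ccl20 and Ccl28 changed by 0.12 ± 0.29 and -0.15 ± 0.09 in spontaneous and 0.26 ± 0.26 and -0.16 ± 0.08 in treated tumors.

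The membrane-anchored chemokines Cx3cl1 and Cxcl16 and the C class member Xcl1 did not pass. Cx3cl1, an adhesion molecule for CX3CR1-bearing cells, changed by -0.05 ± 0.23 and 0.20 ± 0.20. Of its other 3 probe sets 1 passed in treated tumors when tested singly, at 0.80 ± 0.16 (limma adjusted p = 0.00123). Cxcl16, the ligand of CXCR6, changed by 0.13 ± 0.33 and -0.12 ± 0.30. Xcl1, which acts on XCR1 of cross-presenting dendritic cells, changed by 0.50 ± 0.32 and -0.05 ± 0.29.

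**Figure D3:**
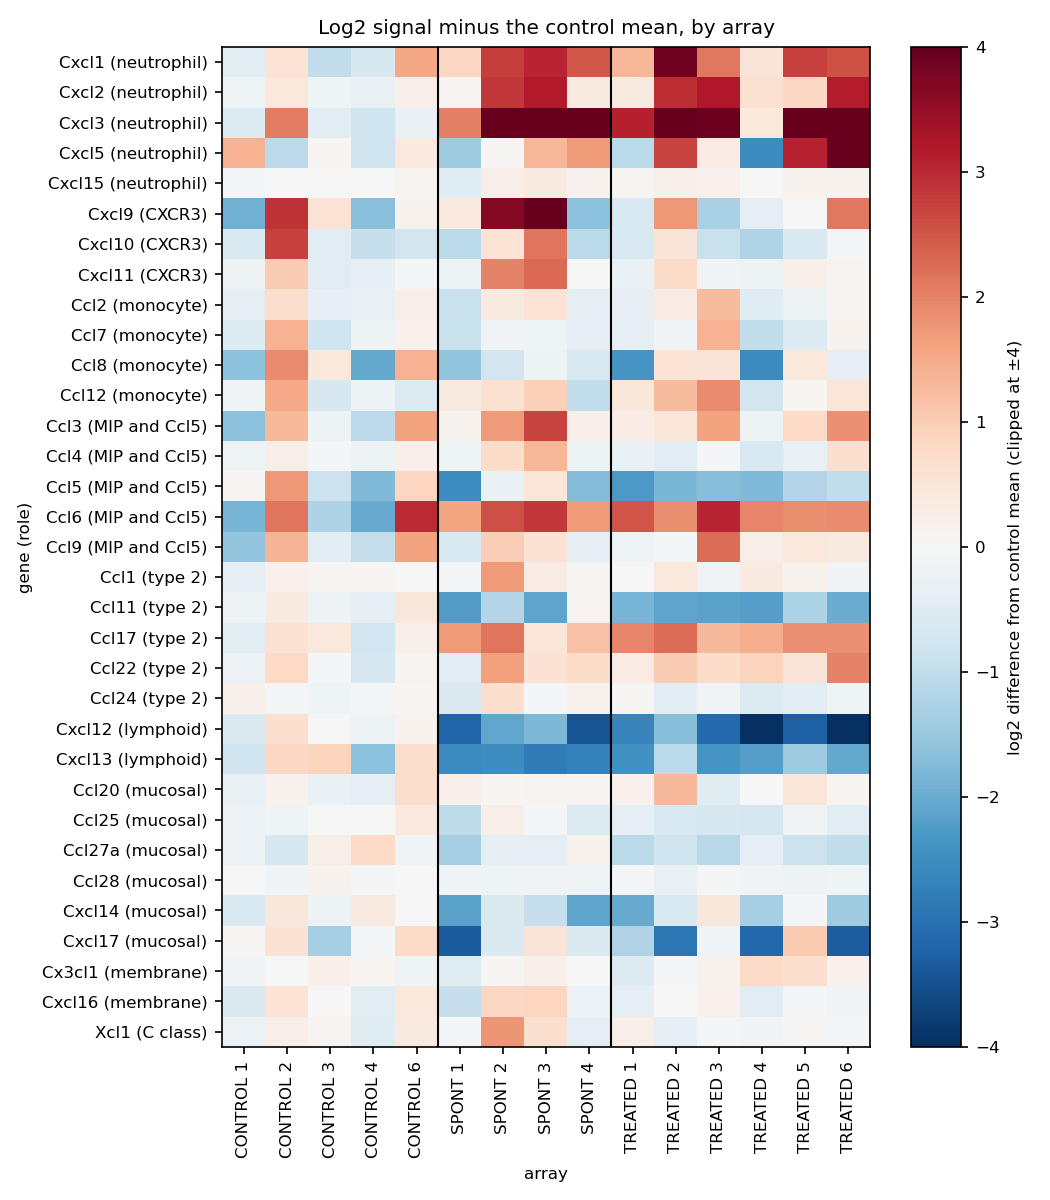
Log2 signal of each chemokine ligand (rows, ordered by role) on each of the 15 arrays (columns) minus its mean over the 5 controls, in red for higher and blue for lower, clipped at 4 log2 units either way. Control 2 and spontaneous tumor 3 are red for many inflammatory chemokines, while the Cxcl12 and Cxcl13 rows are blue in all 10 tumors.

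Chemokine ligands varied more between arrays of a group than genes at large. Their median SD was 0.54 in controls, 0.81 in spontaneous and 0.59 in treated tumors, against 0.21, 0.24 and 0.25 over all genes. An SD over 1 log2 unit was found for 10, 10 and 8 of the 33 genes, against 1.14%, 2.17% and 2.65% of all genes. The most variable were Ccl6 in controls (SD 2.37), Cxcl9 in spontaneous tumors (SD 2.85) and Cxcl5 in treated tumors (SD 2.61), and the least variable Cxcl15, Ccl28 and Cxcl15, at 0.06, 0.03 and 0.06.

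The spread followed particular arrays. Control 2 was the highest control for 17 of 33 chemokine ligands (51.5%), against 21.9% of all genes, and spontaneous tumor 3 the highest of its group for 18 (54.5%), against 19.1%. Spontaneous tumor 1 was the lowest of its group for 23 (69.7%), against 37.6% of all genes, and treated tumor 4 for 15 (45.5%), against 20.0%. Control 2 also had the highest control means for the neutrophil, T cell and B and plasma cell marker lists, at 7.67, 8.85 and 8.47, and spontaneous tumor 1 the lowest means of its group for these lists, at 5.40, 6.43 and 5.82. Treated tumor 4 was likewise the lowest of its group, at 6.1, 5.91 and 5.34. Spontaneous tumor 3, at 6.94, 7.63 and 6.49, was not the highest of its group for any of these lists. Spontaneous tumor 2 was higher for the neutrophil (7.19) and T cell (7.96) lists, and spontaneous tumor 4 for the B and plasma cell list (6.72). The part of these cells in the spread was not tested.

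Of 16 typical chemokine receptors measured, 5 fell and 0 rose in spontaneous tumors, and 6 fell and 1, Ccr1, rose in treated tumors. Over all genes, 12.9% passed as lower and 20.1% as higher in spontaneous tumors, and 15% and 23.7% in treated tumors. Whether the receptors differ from these shares was not tested. Ccr2, Ccr6, Cxcr3, Cxcr5 and Cxcr6 fell in both, and Ccr9 in treated tumors by 0.42 on the log2 scale and, without spontaneous tumor 2, in spontaneous tumors. Ccr6, the receptor of Ccl20, fell by 0.83 and 0.43. Cxcr6 fell by 0.68 and 0.96, and its spontaneous call was lost without any 1 of control 1, 2, 4 or 6 or spontaneous tumor 1 or 4, at adjusted p of 0.0548 to 0.138. Ccr3, Ccr4, Ccr8, Ccr10 and Cxcr2 passed in neither group.

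Of the 5 atypical receptors, Ackr2, Ackr3 and Ccrl2 fell in both tumor groups. Over all genes, 12.9% passed as lower in spontaneous and 15% in treated tumors. Ackr2, or D6, a scavenger of inflammatory CC chemokines such as Ccl2, Ccl5, Ccl11 and Ccl17, had signals of 10.40, 10.04, 10.63, 9.83 and 10.09 in controls and of 6.92, 7.43, 7.46 and 7.12 in spontaneous tumors. Treated tumors ranged from 6.31 over a median of 6.95 to 7.55. All tumors were far below all controls, with no overlap. The fitted log2 change was -2.96 ± 0.23 (limma adjusted p = 3.55e-07) and -3.28 ± 0.20 (adjusted p = 3.09e-08), or 7.81-fold and 9.68-fold lower.

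Ackr3, which binds Cxcl12, fell by 1.33 and 1.11 on the log2 scale and Ccrl2, which holds chemerin at the cell surface, by 1.21 and 1.59. Ackr3 lost its spontaneous call without control 2, spontaneous tumor 1 or 4 and its treated call without control 2 or 3 or treated tumor 2, 5 or 6, at adjusted p of 0.0543 to 0.0833. Ccrl2 lost its spontaneous call without spontaneous tumor 1 or 4, at 0.0511 and 0.0535. Without spontaneous tumor 1 or 4, the count of atypical receptors called in spontaneous tumors fell from 3 to 1.

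**Figure D4:**
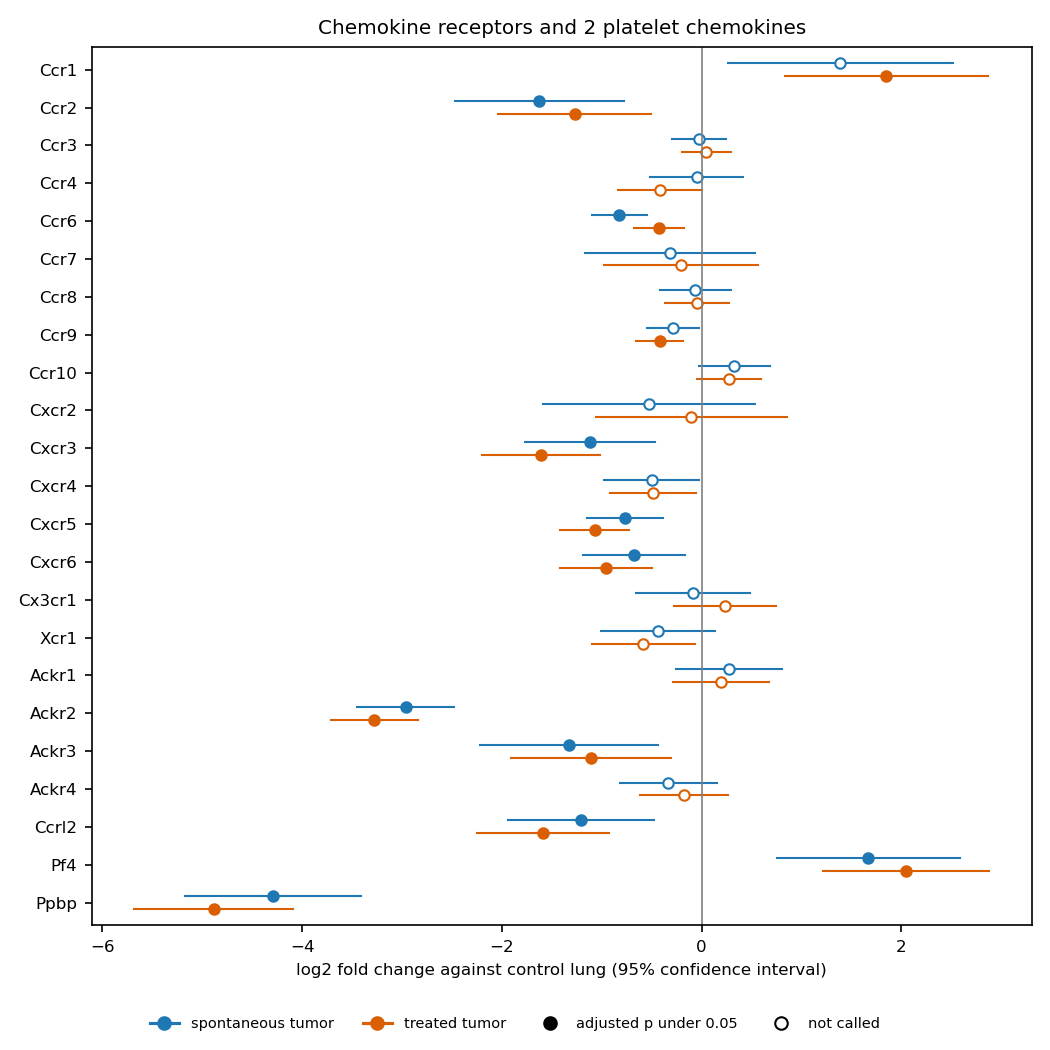
Log2 fold change against control lung (x axis) with 95% confidence intervals for 16 typical and 5 atypical chemokine receptors and the platelet chemokines Pf4 and Ppbp (y axis), in spontaneous (blue) and treated (orange) tumors, with filled points for an adjusted p under 0.05. Ackr2 and Ppbp lie farthest to the left, and Pf4 and Ccr1 to the right.

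The platelet chemokines Pf4 and Ppbp, CXC chemokines that keep older symbols, moved in opposite directions. Pf4 had signals of 9.51 to 10.00 in controls, 10.49 to 11.96 in spontaneous and 10.23 to 12.79 in treated tumors and rose by 1.67 ± 0.43 (limma adjusted p = 0.00814) and 2.05 ± 0.39 (adjusted p = 0.000708). Ppbp, a CXCR2 ligand, was at 8.39 to 10.43 in controls, 4.86 to 5.58 in spontaneous and 3.79 to 5.90 in treated tumors and changed by -4.29 ± 0.41 (adjusted p = 2.48e-06) and -4.88 ± 0.37 (adjusted p = 1.76e-07). All tumors lay above all controls for Pf4 and below them for Ppbp. The platelet markers Gp1bb, Gp9, Itga2b and Treml1 were lower in both tumor groups, with the spontaneous call lost for Itga2b without spontaneous tumor 3 and for Treml1 without spontaneous tumor 1.

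Of 15 cytokines known to induce chemokines, 3 rose and 2 fell in spontaneous tumors and 2 rose and 2 fell in treated tumors. Over all genes, 20.1% rose and 12.9% fell in spontaneous tumors, and 23.7% rose and 15% fell in treated tumors. Csf2, or GM-CSF, which induces Ccl17 in macrophages and dendritic cells, rose by 2.02 ± 0.32 (limma adjusted p = 0.000245) and 1.96 ± 0.29 (adjusted p = 9.15e-05). Il33, an epithelial alarmin, rose by 1.85 ± 0.52 and 1.26 ± 0.47, and its treated call was lost without any 1 of control 1, 3 or 4, spontaneous tumor 2, 3 or 4 or treated tumor 1, 2, 5 or 6, at adjusted p of 0.0506 to 0.126. Il17a was higher in spontaneous tumors by 0.37 ± 0.13, a call lost without any 1 of control 1, 3 or 4 or a spontaneous tumor. Tslp fell by 1.30 and 1.40 on the log2 scale, and Ltb, part of lymphotoxin, by 0.66 in each, with the spontaneous call of Ltb lost without control 2 or 6 or spontaneous tumor 1 or 4. Without spontaneous tumor 4 the count in spontaneous tumors fell from 5 to 3. Tnf, Il1b and Il6 passed in neither group, though Tnf passed as higher in spontaneous tumors without control 6 or spontaneous tumor 1 (adjusted p = 0.0398 and 0.0123).

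Of 20 regulators of NF-kappaB and interferon transcription, 0 passed as higher, 1 passed as lower in spontaneous tumors and 5 in treated tumors. Over all genes, 20.1% and 23.7% passed as higher, and 12.9% and 15% as lower, in spontaneous and treated tumors. Nfkbia, an inhibitor and target of NF-kappaB, fell by 0.86 and 0.63 on the log2 scale (limma adjusted p = 0.0028 and 0.00821), and Nfkb2, Rel, Stat2 and Irf1 also fell in treated tumors, with Nfkb2 lost without control 1 and Rel without control 2. Without spontaneous tumor 3, Irf1 and Stat2 passed as lower in spontaneous tumors too (adjusted p = 0.036 and 0.0158), and the count there rose from 1 to 3. Irf5 passed as higher in treated tumors without spontaneous tumor 1, spontaneous tumor 2 or treated tumor 4, at adjusted p of 0.0431 to 0.0472.

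Of 12 proteases that act on chemokines, Dpp4, which trims and inactivates Cxcl12 among others, rose by 1.22 ± 0.22 and 1.10 ± 0.20, and Mmp2, which also cleaves Cxcl12, fell by 2.16 and 1.84 on the log2 scale. The other 10 passed in neither group. Over all genes, 33% passed in spontaneous and 38.7% in treated tumors. Without control 6, the macrophage proteases Ctss (1.42 and 1.32) and Mmp12 (2.61 and 2.81) passed as higher in both tumor groups, at adjusted p of 0.0114 to 0.0313, which raised the count from 2 to 4. Ctss also passed in both without control 2, and in treated tumors Mmp12 passed without treated tumor 1 and Cma1 as lower without control 1. None of these lists had a gene called between the tumor groups in limma.

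Between treated and spontaneous tumors, the smallest adjusted p of the 33 ligands was 0.588, for Cxcl11, whose difference was -0.94 (95% interval -1.88 to 0.01). The interval was -1.43 to 1.25 for Cxcl1, -2.59 to 1.29 for Cxcl3, -1.65 to 0.42 for Cxcl12, -0.22 to 1.65 for Cxcl13, -0.27 to 1.06 for Ccl17 and -1.35 to 0.21 for Ccl11. Differences of more than 2-fold between the tumor types therefore lay within the intervals of all 6, and a missed threshold does not show that the tumors were alike.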

How the data were processed

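The deposited log2 values were made with RMA, per the submitters' processing notes, which carry no version of it here. RMA corrects background, normalizes arrays together and summarizes probes, so low signals are compressed and fold changes understated. Raw image files were not analysed here, and ORIOGEN, the comparison tool the labels name, was not run. Of 45101 probe sets, 34945 carried 1 gene symbol; each gene was read from the 1 with the brightest average across all 18 arrays. The deposited values of 15 arrays were fitted in limma 3.58.1 under R 4.3.3 with 1 mean per group, and p-values were adjusted by Benjamini and Hochberg over 18193 genes. Every chemokine ligand could be named; of other lists, up to 6 genes per comparison with the smallest p and any receptor of a named ligand. The genes and lists were chosen with earlier results of these data known. The number of arrays limits the precision: over all genes the median standard error was 0.15 to 0.17 log2 units, and over the 33 ligands 0.41 to 0.46, with single values from 0.08 to 1.21. Same-numbered arrays of different groups mostly did not deviate together (13 pairs, r from -0.15 to 0.30, 2 over 0.1), which does not show whether they were paired. At most 32 values were identical in any pair of arrays. In data simulated with the spread of these arrays over 18193 genes, the spontaneous comparison recovered 75.8% of true changes of 1 log2 unit, 95.6% at 2 units and 97.0% at 3 units, and made 5 false calls. The changed genes were drawn from all genes, with 66, 68 and 66 of them at 1, 2 and 3 units, and noise was independent between genes. The real spontaneous comparison called 5995 genes, so recovery and false calls there may differ from the simulated ones. Recovery for the 33 ligands, whose standard errors are larger, was not simulated and may be lower. Promoters were read from RefSeq's table for GRCm38.p6, the first listed window per gene.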

Additional observations from a re-analysis of the deposited data

Results flagged for a closer look

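Of 99 combinations of a chemokine ligand and a group, 8 had 1 array whose gap to its nearest neighbour was large for the range of the group, by Dixon's ratio at the 95% level; chance flags about 1 in 20 groups. In controls these were control 2 for Ccl12 (8.28), Cxcl3 (5.13), Cxcl10 (9.51) and Cxcl11 (5.17), each the highest of its group, control 1 for Ccl1 (4.36), the lowest, and control 6 for Cxcl15 (14.08), the highest. In tumors these were spontaneous tumor 1 for Cxcl3 (5.08), the lowest of its group, and treated tumor 3 for Ccl9 (11.68), the highest. Control 2 thus accounts for 4 of the 8.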

How the results depend on the processing

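With all 18 arrays, 746 genes passed in spontaneous and 1353 in treated tumors against control and 0 between the tumor groups, and 2 (Ccl17 and Cxcl3) and 4 (those and Ccl11 and Cxcl13) chemokine ligands; Cxcl12 then had adjusted p of 0.0866 and 0.057. With array weights, 36 genes passed between the tumor groups. A filter that kept the brighter genes (mean at or over the median) left 9097 genes tested. Of these, 3999 were called in spontaneous and 4648 in treated tumors, and 4 and 5 chemokine ligands of the 12 still tested. Quantile normalization gave 5 genes, a mean-variance trend with robust variances 5, the arrays of the 2 groups alone 0 and the actin covariate 23 between the tumor groups. The exact permutation test gave 0 there, with 1199 genes at an unadjusted p under 0.05. Against control it called 4038 genes in spontaneous and 6458 in treated tumors, and 1 (Cxcl12) and 11 chemokine ligands. In spontaneous tumors its smallest possible p was 0.00794 before adjustment. A fold change of at least 2 kept 2407 and 2580 genes. Testing every probe set singly called 11007 and 13119 of 34945 probe sets and 14 and 18 of the 51 of chemokine ligands. The replicate number as a block gave 0 genes between the tumor groups. Against control it gave 5760 and 6407 genes and 10 and 12 chemokine ligands in spontaneous and treated tumors. The labels do not state whether arrays that share a number were paired, and the check of their deviations cannot decide it. Leaving out 1 array at a time gave 4996 to 6155, 6064 to 7188 and 0 to 28 genes, and 6 to 8, 7 to 12 and 0 to 0 chemokine ligands, in the 3 comparisons. The cause of these shifts was not tested. Over all alternatives, 52 values of single chemokine ligands lost their call, 36 gained one and 0 reversed a called direction. The depth of an array is its signal over background: 21 of the 33 ligands had a mean below the median of all genes (7.64), where RMA compresses differences.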
